A study of Mus musculus with 10 samples.

Results

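The 10 genes described here move cholesterol out of cells, carry it on lipoproteins, take lipoproteins up or store sterols inside the cell. They were followed through 4 RNA-seq libraries of brown preadipocyte cultures taken through adipogenesis. They were chosen by symbol: Abca1, Abcg1, Apoe, Apoc1, Apod, Vldlr, Scarb1, Soat1, Npc1 and Mylip, 10 of the 22835 gene names in the deposited tables, and all 10 were found in the tables of both lines. The choice was made with earlier results of these data known. Where a symbol had several transcript rows, the row with the highest mean RPKM (the read count scaled by transcript length and library depth) over the 4 libraries was used.

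The LSL-K4M line has the genotype LSL-K4M;CreER and was sequenced as a 4OHT library and a mock library. The Mll3/4SET line has the genotype Mll3f/f;Mll4SETf/f;CreER and was likewise sequenced as a 4OHT library and a mock library. 4OHT is 4-hydroxytamoxifen, which activates the CreER recombinase. By the series title and the genotypes, it switches on histone H3.3 with methionine in place of lysine 4 in LSL-K4M, and it deletes floxed Mll3 and the floxed SET domain of Mll4 in Mll3/4SET. The labels say neither what the mock cultures received nor which promoter drives CreER. The question behind both models is whether blocking H3K4 methylation by MLL3 and MLL4 holds back fat cell differentiation. All cultures came from interscapular brown fat of newborn mice, carried CreER, were immortalised with SV40 large T antigen and were induced with a cocktail of insulin at 0.02 μM, the thyroid hormone T3 at 1 nM, the steroid dexamethasone at 2 μg/ml, the phosphodiesterase inhibitor IBMX at 0.5 mM and indomethacin at 0.125 mM. The stage label of every RNA library is day 7, but both 4OHT titles carry day 0. The headers of the deposited data give day 7 for both 4OHT libraries as well, and day 7 was used here. With 1 library in each group, the differences rest on no replicates and were not tested for significance. No library with CreER and 4OHT but without the targeted alleles was analysed here, so an effect of 4OHT itself and an effect of recombination cannot be told apart.

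Cells shed surplus cholesterol through membrane transporters that load it onto apolipoproteins, and they take lipoproteins up through surface receptors. Liver X receptors (LXR), nuclear receptors that sense oxidised sterols, switch on many of the genes of this traffic, among them Abca1, Abcg1, Apoe and, as a brake on uptake, Mylip. Fat tissue holds one of the body's largest stores of cholesterol, much of it around and inside lipid droplets, and mature fat cells are known to make apolipoprotein E.

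Reads summed over 1 transcript per gene came to 16719658 with 4OHT and 15209607 in mock for LSL-K4M, and to 15350730 with 4OHT and 15420521 in mock for Mll3/4SET. The 10 genes held 0.107% of these reads in LSL-K4M 4OHT and 0.229% in LSL-K4M mock. They held 0.0966% in Mll3/4SET 4OHT and 0.232% in Mll3/4SET mock. Of 15 adipocyte markers, all 15 measured in LSL-K4M and all 14 measured in Mll3/4SET were at least 2-fold lower with 4OHT, with median log2 differences of -1.95 and -5.33. Fabp4, a fatty acid carrier of fat cells, was at 1066 RPKM with 4OHT against 4099 RPKM in mock in LSL-K4M, and at 24.3 RPKM against 5119 RPKM in Mll3/4SET. Pparg, the master regulator of fat cell differentiation, was 5.84-fold lower in LSL-K4M and 31.0-fold lower in Mll3/4SET, and the hormone gene Adipoq was at 119 RPKM with 4OHT and 483 RPKM in mock in LSL-K4M and at 3.22 RPKM with 4OHT and 167 RPKM in mock in Mll3/4SET. The brown fat marker Ucp1 was low even in the mock libraries, at 3.58 RPKM in LSL-K4M and 1.45 RPKM in Mll3/4SET. In bulk cultures, fewer differentiated cells and less RNA per cell cannot be told apart.

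In each line 6 of the 10 genes were lower by at least 2-fold with 4OHT, the same 6 in both: Abca1, Abcg1, Apoe, Apoc1, Apod and Scarb1. Soat1 was higher by at least 2-fold in both lines. Vldlr, Npc1 and Mylip stayed under 2-fold in both. The 2-fold limit was set on the difference between log2(RPKM + 1) values, 4OHT minus mock. It was applied to measured genes, those whose higher library in a line reached 1 RPKM, which all 10 did. Beside these 6 of 10, 6.19% of 12179 measured genes were lower in LSL-K4M and 7.41% of 12184 were lower in Mll3/4SET. Since the 10 genes were chosen with earlier results of these data known, this comparison describes them and tests nothing. Beside the 1 of 10 that was higher, 5.26% of measured genes were higher in LSL-K4M and 5.18% in Mll3/4SET, so a single higher gene is near the background. The share of measured genes lower in both lines was not counted, so the match of the 6 between lines has no background beside it. The median log2 difference of the 10 genes was -1.06 in LSL-K4M, where the median of all measured genes was 0.10. It was -1.52 in Mll3/4SET, where the median of all measured genes was 0.12.

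**Figure D1:**
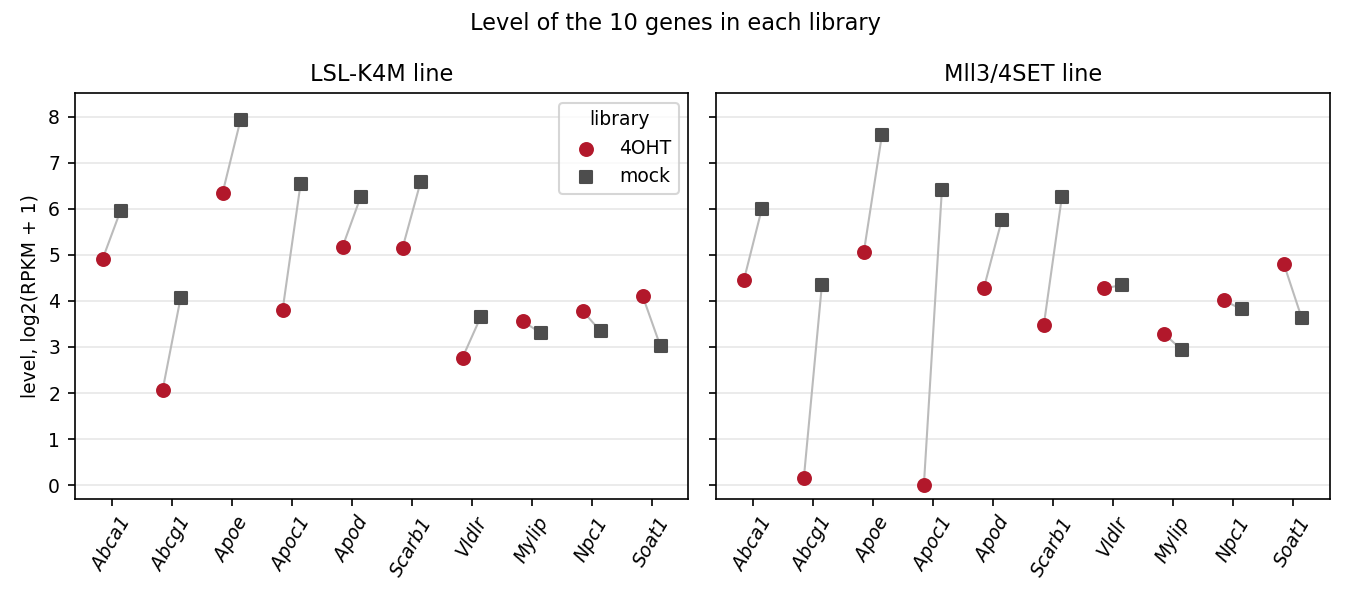
Level of each of the 10 genes on the log2(RPKM + 1) scale (vertical axis) in the 4OHT library (circles) and the mock library (squares) of LSL-K4M (left panel) and Mll3/4SET (right panel). Each point is 1 library. The circles of Abca1, Abcg1, Apoe, Apoc1, Apod and Scarb1 lie below their squares in both panels, and that of Apoc1 in Mll3/4SET is at 0.

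Sequence windows from 250 bases before to 50 bases after a transcription start, from RefSeq on build GRCm38.p6, were at hand for 6 of the 10 genes (9 windows). Those of Abca1 and Apoe, lower in both lines, and of Soat1, higher in both, are shown 5′ to 3′ on the gene's strand, so that the start regions of the genes with opposite directions can be read side by side. Capitals mark matches on either strand to the known LXR element of the Abca1 promoter with its 5 middle bases left free, to the TATA box letters TATAAA, or to a GC box. The GC box was searched as the letters GGGCGG. None of these matches overlap, and lower case holds no match.
Abca1: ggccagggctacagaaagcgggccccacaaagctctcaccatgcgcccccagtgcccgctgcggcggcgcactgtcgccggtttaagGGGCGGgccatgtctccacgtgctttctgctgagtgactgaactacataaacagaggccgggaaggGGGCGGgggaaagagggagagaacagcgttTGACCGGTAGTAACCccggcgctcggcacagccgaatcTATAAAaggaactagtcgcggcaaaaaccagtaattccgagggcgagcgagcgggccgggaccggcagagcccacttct
Apoe: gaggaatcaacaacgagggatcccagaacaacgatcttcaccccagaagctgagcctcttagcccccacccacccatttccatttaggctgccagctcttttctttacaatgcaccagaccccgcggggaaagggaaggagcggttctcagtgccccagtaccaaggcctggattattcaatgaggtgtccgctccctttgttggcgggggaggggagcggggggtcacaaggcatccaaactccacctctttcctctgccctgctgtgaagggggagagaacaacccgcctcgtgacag
Soat1: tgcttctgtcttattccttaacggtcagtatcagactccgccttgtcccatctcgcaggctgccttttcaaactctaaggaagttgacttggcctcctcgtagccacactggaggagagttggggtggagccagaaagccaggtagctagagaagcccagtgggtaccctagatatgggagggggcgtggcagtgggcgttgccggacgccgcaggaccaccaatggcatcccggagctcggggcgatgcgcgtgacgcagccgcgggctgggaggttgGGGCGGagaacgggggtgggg
The windows are chr4:53159846-53160145, chr7:19699139-19699438 and chr1:156474279-156474578, all on the minus strand. For Apoe it is the most upstream of 3 listed starts. Another Apoe window, not shown here, does hold a match to the TATA box. The LXR element is a direct repeat with a spacer, and its letters were chosen because it is known from this gene, so its presence there is no finding. It stands in the Abca1 window in reverse orientation, beginning 67 bases before the start, as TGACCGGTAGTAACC. Of 32851 windows of the same length over all genes, 0.0487% hold this match, and among the 9 windows of the 10 genes the Abca1 window was the 1 that did. The Abca1 window also has TATAAA 29 bases before the start and GGGCGG 163 and 97 bases before it. The Soat1 window has GGGCGG 29 bases after the start, and the Apoe window shown has none of the 3 motifs. TATAAA occurs in 13.6% and GGGCGG in 35.7% of all windows. The share of G and C was 62.7% in the Abca1 window, 57.7% in the Apoe window and 62.0% in the Soat1 window, where the median of all windows was 52.7%.

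Both cholesterol efflux transporters were lower with 4OHT in both lines. ABCA1, whose promoter is the first sequence above, loads cholesterol and phospholipid onto lipid-poor apolipoprotein A-I. Abca1 was at 29.0 RPKM (6850 reads) with 4OHT and 61.2 RPKM (13541 reads) in mock in LSL-K4M, and at 20.9 RPKM (4655 reads) with 4OHT and 63.1 RPKM (14414 reads) in mock in Mll3/4SET. The mock levels of the lines lay close together, and both 4OHT levels lay below them. The RPKM ratio was 2.11-fold lower (2.05 to 2.17) in LSL-K4M and 3.02-fold lower (2.92 to 3.12) in Mll3/4SET. Intervals in brackets are exact 95% conditional binomial intervals of the reads, which cover counting error and not variation between cultures. Levels of the 2 lines come from tables that the authors normalised apart, so each fold was taken within its own table.

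ABCG1 hands cholesterol to mature high-density lipoprotein and was by far the more affected transporter in Mll3/4SET. Abcg1 was at 3.17 RPKM with 4OHT and 15.7 RPKM in mock in LSL-K4M, and at 0.119 RPKM with 4OHT and 19.3 RPKM in mock in Mll3/4SET. It was 4.93-fold lower (4.44 to 5.49) in LSL-K4M and 162-fold lower (98.0 to 289.7) in Mll3/4SET, where 15 reads were left with 4OHT against 2494 reads in mock. On the log2(RPKM + 1) scale the Mll3/4SET difference was -4.18, since the added 1 RPKM shrinks a change that ends near 0. Abca1 was 9.14 times the RPKM of Abcg1 with 4OHT and 3.91 times in mock in LSL-K4M. In Mll3/4SET it was 176 times with 4OHT and 3.28 times in mock. Among measured genes the Abcg1 difference had rank 131 from the lowest in LSL-K4M and rank 57 in Mll3/4SET.

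All 3 apolipoprotein genes were lower with 4OHT in both lines. Apoe, which encodes the ligand by which many lipoproteins are taken up and is also secreted by fat cells and macrophages, was the most abundant of the 10 genes in each of the 4 libraries. It was at 80.1 RPKM with 4OHT and 243 RPKM in mock in LSL-K4M, and at 32.5 RPKM with 4OHT and 192 RPKM in mock in Mll3/4SET. The fold was 3.04-fold lower (2.90 to 3.19) in LSL-K4M and 5.90-fold lower (5.49 to 6.34) in Mll3/4SET. By level it held rank 526 with 4OHT and rank 104 in mock among the 22835 names in LSL-K4M, and rank 1621 with 4OHT and rank 124 in mock in Mll3/4SET.

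Apoc1 encodes a small apolipoprotein that can slow lipoprotein uptake and lipase action, and it showed the lowest log2 difference of the 10 genes in each line. It had 128 reads (12.9 RPKM) with 4OHT and 852 reads (91.8 RPKM) in mock in LSL-K4M, 7.10-fold lower (5.89 to 8.62). In Mll3/4SET it had 0 reads with 4OHT and 802 reads (83.8 RPKM) in mock, which is at least 260.3-fold lower when the 3 reads that a count of 0 allows are taken as the floor. That bound leaves out the counting error of the mock reads and is not the limit of the 95% interval. The exact 95% interval is looser and allows a ratio of up to 0.00473, a smaller fold than 260.3. So the transcript remained well detected in LSL-K4M 4OHT and was not detected at this depth in Mll3/4SET 4OHT. The log2 difference of Apoc1 had rank 12 from the lowest of all measured genes in LSL-K4M and rank 6 in Mll3/4SET. A second transcript row of Apoc1 had 133 reads with 4OHT and 851 in mock in LSL-K4M, and 0 with 4OHT and 800 in mock in Mll3/4SET.

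Apod encodes apolipoprotein D, a lipocalin that binds arachidonic acid and other small lipids and is unrelated in fold to the exchangeable apolipoproteins. It was at 35.1 RPKM with 4OHT and 75.1 RPKM in mock in LSL-K4M, 2.14-fold lower (2.01 to 2.28). For Mll3/4SET the values were 18.4 RPKM with 4OHT and 53.3 RPKM in mock, or 2.89-fold lower (2.66 to 3.15). With Abca1 it was the gene of the 6 nearest to the 2-fold limit in LSL-K4M, at log2 differences of -1.08 for Apod and -1.05 for Abca1.

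Apoe and Apoc1 are neighbours in the mouse genome, and the well measured genes around them stayed under 2-fold, except Bcam in LSL-K4M. In the order along the chromosome given by the GRCm38.p6 gene list, used here for names and order alone, Clptm1 and Apoc4 come before Apoc1 and Apoe, and Tomm40, Pvrl2 (current symbol Nectin2) and Bcam come after. Tomm40, which encodes a mitochondrial import channel and is the next gene after Apoe, was at 28.3 RPKM with 4OHT and 30.7 RPKM in mock in LSL-K4M, and at 26.8 RPKM with 4OHT and 33.0 RPKM in mock in Mll3/4SET. Its folds were 1.09-fold lower (0.996 to 1.19) and 1.23-fold lower (1.13 to 1.34), both under those of Apoe. The log2 differences were -0.35 for Clptm1 and 0.17 for Pvrl2 in LSL-K4M, with -0.37 and 0.17 for Mll3/4SET. Bcam was higher by 2.91-fold (2.20 to 3.88) in LSL-K4M at low levels, 3.81 RPKM with 4OHT and 1.31 RPKM in mock, a call lost under median-ratio scaling, and its log2 difference in Mll3/4SET was 0.30. Apoc4 had 3 reads with 4OHT and 11 reads in mock in LSL-K4M, and 0 reads with 4OHT and 4 reads in mock in Mll3/4SET. Apoc2, the other small apolipoprotein gene of this cluster, was as sparse, with 3 reads against 11 in LSL-K4M and 0 against 3 in Mll3/4SET, so neither could be followed at this depth.

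**Figure D2:**
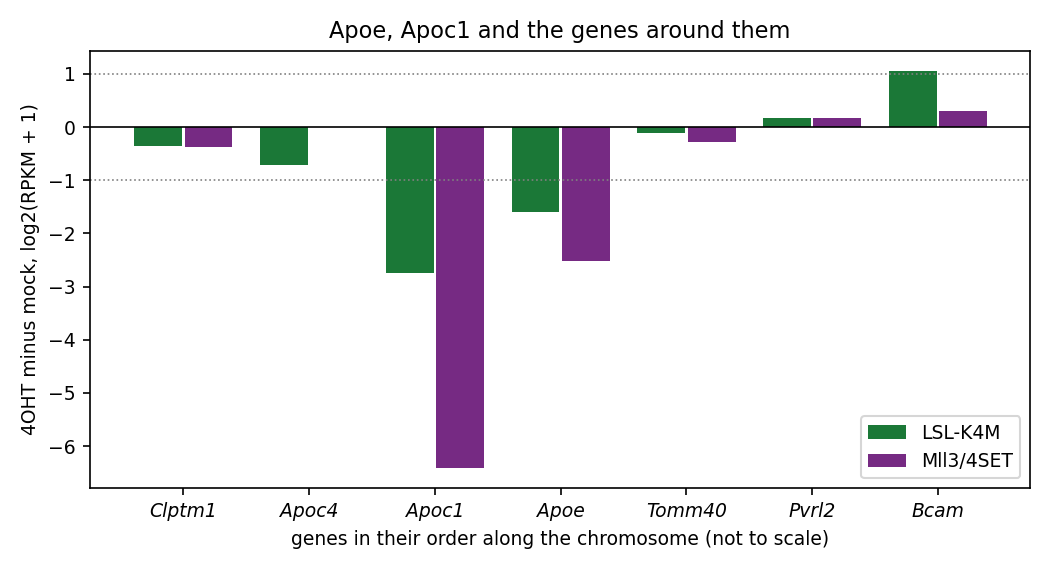
Difference 4OHT minus mock on the log2(RPKM + 1) scale (vertical axis) for Apoc1, Apoe and the measured genes around them in their order along the chromosome (horizontal axis, not to scale), in LSL-K4M (green) and Mll3/4SET (purple). Each bar compares 1 library with 1 library, and dotted lines mark 2-fold. The bars of Apoc1 and Apoe run to -2.74 and -1.59 in LSL-K4M and to -6.41 and -2.52 in Mll3/4SET, while Clptm1, Tomm40 and Pvrl2 stay within the dotted lines. In LSL-K4M, Bcam reaches 1.06, past the upper dotted line, and the sparse Apoc4 (3 reads with 4OHT, 11 in mock) is at -0.71.

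The lipoprotein receptor genes split. Scarb1 encodes SR-BI, the high-density lipoprotein receptor that lets cholesteryl esters pass into and cholesterol out of cells. It was at 34.5 RPKM with 4OHT and 94.4 RPKM in mock in LSL-K4M, 2.74-fold lower (2.59 to 2.89). In Mll3/4SET it was at 10.2 RPKM with 4OHT and 75.5 RPKM in mock, 7.40-fold lower (6.76 to 8.12). The other 2 rows of Scarb1 were both 2.72-fold lower in LSL-K4M and were 6.95-fold and 7.49-fold lower in Mll3/4SET, so the choice of row mattered little.

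Vldlr encodes a receptor for triglyceride-rich lipoproteins that carry apolipoprotein E, and its fold differed between the lines without passing 2-fold in either. It was at 5.82 RPKM with 4OHT and 11.5 RPKM in mock in LSL-K4M, and at 18.3 RPKM with 4OHT and 19.3 RPKM in mock in Mll3/4SET. On the log2(RPKM + 1) scale, on which the limit was set, the differences were -0.88 in LSL-K4M and -0.07 in Mll3/4SET. The RPKM ratio was 1.98-fold lower (1.84 to 2.14) in LSL-K4M and 1.05-fold lower (1.00 to 1.10) in Mll3/4SET. The 4OHT to mock ratio was therefore 1.89 times as high in Mll3/4SET as in LSL-K4M, with a counting interval of 1.73 to 2.06. The deposited second row of Vldlr gave 1.99-fold and 1.05-fold lower.

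Mylip encodes an E3 ubiquitin ligase, also known as IDOL, that marks lipoprotein receptors, the product of Vldlr among them, for breakdown and is itself an LXR target. It was at 10.8 RPKM with 4OHT and 8.90 RPKM in mock in LSL-K4M, and at 8.79 RPKM with 4OHT and 6.65 RPKM in mock in Mll3/4SET. The RPKM ratios were 1.21 (1.03 to 1.43) and 1.32 (1.09 to 1.60), above 1 where those of Abca1, Abcg1 and Apoe, LXR targets too, were below 0.5. Its log2 differences of 0.25 and 0.36 lay close to the middle of all genes, with 62.5% and 70.5% of measured genes below them.

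Of the genes that handle cholesterol inside the cell, Soat1 was higher with 4OHT and Npc1 stayed under 2-fold. Soat1 encodes an acyltransferase of the endoplasmic reticulum that turns free cholesterol into cholesteryl ester for storage. It was at 16.3 RPKM (1791 reads) with 4OHT and 7.06 RPKM (729 reads) in mock in LSL-K4M, 2.30-fold higher (2.11 to 2.51). The Mll3/4SET levels of Soat1 were 26.9 RPKM (2786 reads) with 4OHT and 11.3 RPKM (1204 reads) in mock, 2.38-fold higher (2.22 to 2.54). The 2 folds were nearly alike, and the ratio of Mll3/4SET to LSL-K4M was 1.03 (0.925 to 1.15). By level Soat1 had 4 of the 10 genes above it with 4OHT and 9 in mock in LSL-K4M, and 1 above it with 4OHT and 8 in mock in Mll3/4SET. Npc1 encodes the lysosomal membrane protein that releases cholesterol from late endosomes. It was at 12.8 RPKM with 4OHT and 9.13 RPKM in mock in LSL-K4M (ratio 1.40, 1.29 to 1.52), and at 15.1 RPKM with 4OHT and 13.1 RPKM in mock in Mll3/4SET (ratio 1.15, 1.07 to 1.23).

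**Figure D3:**
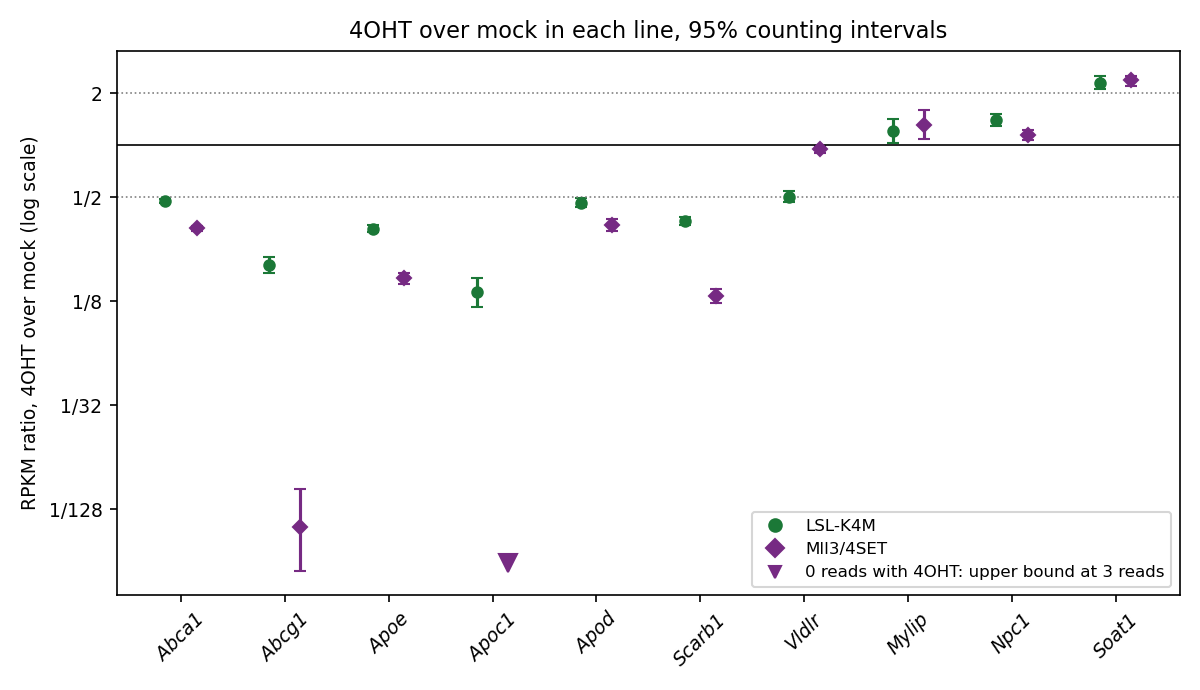
Ratio of RPKM, 4OHT over mock, on a log scale (vertical axis) for each of the 10 genes in LSL-K4M (green circles) and Mll3/4SET (purple diamonds), with 95% counting intervals of the reads as bars and 2-fold as dotted lines. The triangle is the bound for Apoc1 in Mll3/4SET, where 0 reads with 4OHT were set to 3 reads, and is not an interval limit. Abcg1 and Apoc1 lie far below the other genes in Mll3/4SET, and Soat1 is above 2-fold in both lines.

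The log2 differences of all 10 genes had the same sign in both lines, as did those of 81.0% of the 11830 genes measured in both, so the match is near the background. The ratio of Mll3/4SET to LSL-K4M had an interval that held 1 for Soat1, given above, and for Mylip, at 1.09 (0.853 to 1.40). Relative to LSL-K4M, the 4OHT to mock ratio in Mll3/4SET was lower by 32.8-fold for Abcg1 (19.5 to 55.1), by 2.70-fold for Scarb1 (2.43 to 3.00) and by 1.94-fold for Apoe (1.78 to 2.11). It was lower by 1.43-fold for Abca1 (1.37 to 1.49), by 1.35-fold for Apod and by at least 36.7-fold for Apoc1 with 3 reads as the floor, a bound that leaves out the counting error of the other libraries. These intervals come from the reads of 4 libraries, so they compare those libraries and not the genotypes. The order of levels among the 10 genes changed with 4OHT. In LSL-K4M, Apoe was followed by Apod, Scarb1, Abca1, Soat1 and Apoc1 with 4OHT, with Abcg1 last, and by Scarb1, Apoc1, Apod, Abca1 and Abcg1 in mock, with Soat1 last. In Mll3/4SET, it was followed by Soat1, Abca1, Apod, Vldlr and Npc1 with 4OHT, with Apoc1 last, and by Apoc1, Scarb1, Abca1, Apod and Vldlr in mock, with Mylip last. With 1 library per group no spread is at hand to say which neighbours in these orders differ.

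**Figure D4:**
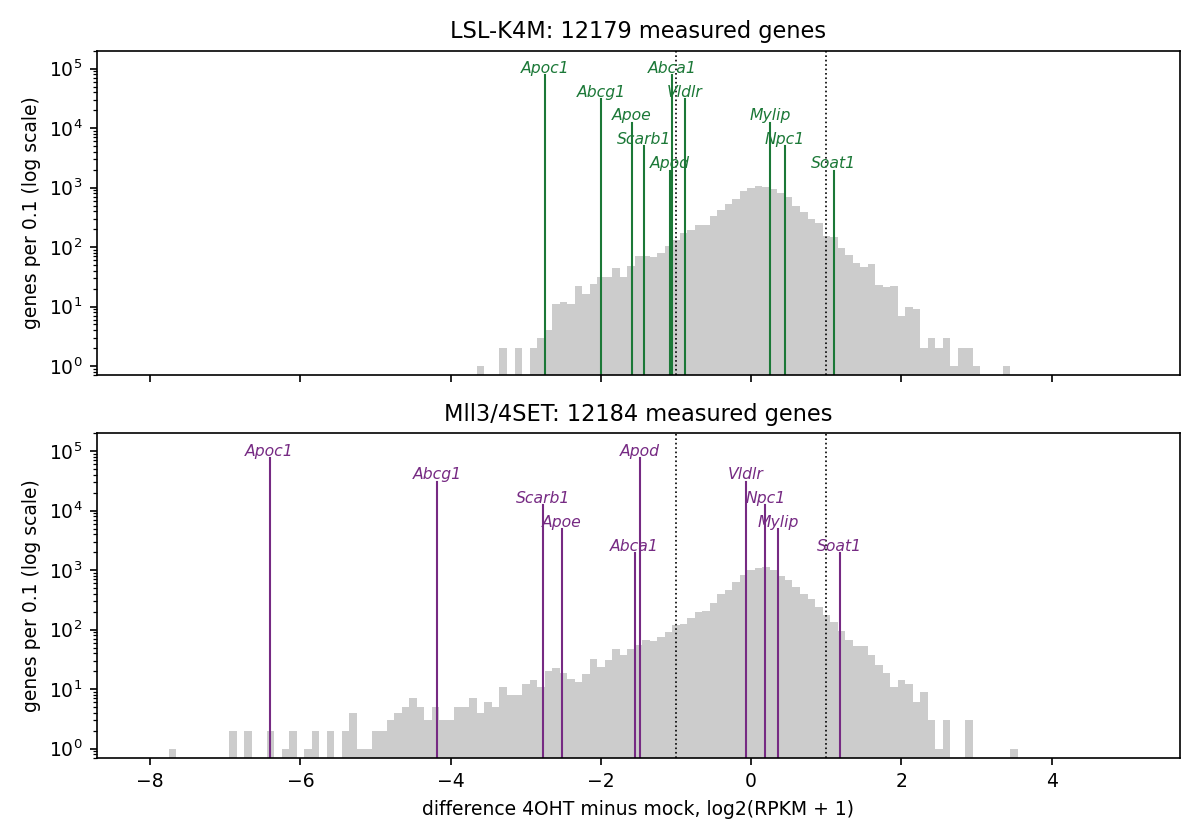
Number of measured genes (vertical axis, log scale) by their difference 4OHT minus mock on the log2(RPKM + 1) scale (horizontal axis, bins of 0.1) in LSL-K4M (top) and Mll3/4SET (bottom), with the 10 genes as coloured lines and 2-fold as dotted lines. In both panels 6 of the 10 genes lie left of the lower dotted line and Soat1 lies right of the upper one.

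Across the 4 libraries, patterns were compared as the Euclidean distance between log2(RPKM + 1) values after centring each gene on its own mean. Within the 10 genes, Apoe and Scarb1 were nearest each other (distance 0.279), followed by Abca1 and Apod (0.490). Among 6265 candidate genes at 10 RPKM or more in their highest library, the nearest to Abca1 were Ugt1a7c, Lyrm5 and Abhd5, and the nearest to Abcg1 were Ltc4s, Fxyd1 and Ephx2. Apoe was nearest to Apol9a, Lpin1 and Echdc1, and Apoc1 to C3, Hp and Cd36. For Apod they were Tnfaip8, Hsdl2 and Ldha, and for Scarb1 they were Ralgapa2, Dusp4 and Pfkfb1. Vldlr was nearest to Ppp1r15a, Nupr1 and Slc7a1, Soat1 to Slc20a1, Cpeb1 and Armcx2, Npc1 to Ndfip1, Vmp1 and Ubxn4, and Mylip to Tex261, Vps53 and Cchcr1. With 4 libraries such a likeness describes little more than the pair of folds.

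Most of the remaining apolipoprotein genes were near 0, and the measured ones were mostly lower with 4OHT. Of 20 listed, 7 were measured in LSL-K4M, 5 of them lower and 0 higher (median -1.65), and 5 were measured in Mll3/4SET, 4 of them lower and 0 higher (median -2.64). Beside this list and those below, 6.19% of all measured genes were lower and 5.26% higher in LSL-K4M. In Mll3/4SET the shares were 7.41% lower and 5.18% higher. Of the plasma lipoprotein genes of liver and gut, Apob had 3 reads or fewer in every library and Apoa1 2 or fewer. Apoc3, another of them, was measured in LSL-K4M, where it was lower at a log2 difference of -1.75, and was not measured in Mll3/4SET. Apool, a mitochondrial family member, stayed under 2-fold, at 7.69 RPKM with 4OHT and 10.1 RPKM in mock in LSL-K4M and at 8.22 RPKM with 4OHT and 9.41 RPKM in mock in Mll3/4SET. Clu, which encodes the chaperone clusterin or apolipoprotein J, was at 4.37 RPKM with 4OHT and 11.9 RPKM in mock in LSL-K4M, 2.72-fold lower (2.29 to 3.25). The Mll3/4SET levels were 0.357 RPKM with 4OHT and 13.1 RPKM in mock, 36.7-fold lower (21.7 to 67.5). Members of the intracellular APOL family were lower too. Apol6 was 9.63-fold lower (7.88 to 11.9) and 76.0-fold lower (34.6 to 208) in LSL-K4M and Mll3/4SET. Apol9a was 3.29-fold lower (2.98 to 3.64) and 7.19-fold lower (6.13 to 8.49). Apol9b was 4.16-fold lower (3.38 to 5.14) and 8.23-fold lower (5.87 to 11.8), but it is a close copy of Apol9a, so the reads of these 2 genes may have been split between them.

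Of the LXR genes, Nr1h3 was lower and Nr1h2 was not, and several targets were lower. Nr1h3, which encodes LXRα, was at 5.30 RPKM with 4OHT and 25.6 RPKM in mock in LSL-K4M, 4.83-fold lower (4.17 to 5.62). In Mll3/4SET it was at 0.640 RPKM with 4OHT and 11.4 RPKM in mock, 17.8-fold lower (11.9 to 27.7). Nr1h2, which encodes LXRβ, had log2 differences of -0.14 and 0.03, at 18.7 RPKM with 4OHT and 20.7 RPKM in mock in LSL-K4M and at 20.4 RPKM with 4OHT and 20.0 RPKM in mock in Mll3/4SET. So with 4OHT LXRβ transcripts outnumbered LXRα transcripts per length in both lines, where in LSL-K4M mock Nr1h3 was the higher of the pair and in Mll3/4SET mock Nr1h2 was. Of 22 genes listed as LXR, its partners and its other known targets, 19 were measured in LSL-K4M, with 8 lower and 2 higher (median -0.27), and 18 in Mll3/4SET, with 9 lower and 0 higher (median -0.71). The higher genes in LSL-K4M were Pltp and Arl4c, at log2 differences of 1.03 and 1.17. Median-ratio scaling gave 9 lower and 1 higher there, with Nrip1 gained and Pltp lost. The genes lower in both lines included Srebf1, a driver of fatty acid synthesis, 3.54-fold (3.46 to 3.63) and 9.63-fold (9.15 to 10.1), and the synthesis enzyme genes Scd1, Scd2 and Fasn. Lpl, the lipase that frees fatty acids from lipoproteins, was 2.68-fold (2.65 to 2.71) and 29.8-fold lower (28.7 to 30.9). These targets are also fat cell genes, and the adipocyte marker list, which shares Lpl with them, was lower too. The part of LXR in the lower level of Abca1, Abcg1 and Apoe was not tested.

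Other receptors and carriers did not move as one. Of 22 lipoprotein receptor and surface lipase genes, 19 were measured in LSL-K4M, with 5 lower and 4 higher (median -0.14), and 18 in Mll3/4SET, with 5 lower and 1 higher (median -0.09). The same 5 genes were lower in both lines: Sorl1, Sort1, Cd36, Lpl and Angptl4. Sort1, a sorting receptor, was 3.05-fold (2.89 to 3.21) and 5.50-fold lower (5.14 to 5.89). Cd36, a fatty acid transporter that also binds oxidised lipoproteins, was 3.93-fold and 171-fold lower. Angptl4, a secreted inhibitor of lipoprotein lipase, was 4.68-fold (4.18 to 5.23) and 4.19-fold lower (3.92 to 4.49). The genes higher in LSL-K4M were Lrp1, Lrp8, Olr1 and Pltp, and Olr1, a scavenger receptor, was the 1 higher in Mll3/4SET. Olr1 was at 2.78 RPKM with 4OHT and 0.649 RPKM in mock in LSL-K4M, and at 3.46 RPKM with 4OHT and 1.01 RPKM in mock in Mll3/4SET. The calls for Lrp1, Lrp8 and Pltp, at log2 differences of 1.04, 1.04 and 1.03, were lost under median-ratio scaling.

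Within the cell, the genes of cholesterol handling moved in both directions. Of 26 listed genes of intracellular cholesterol handling, 25 were measured in LSL-K4M, with 4 lower and 3 higher (median -0.06), and 24 in Mll3/4SET, with 5 lower and 4 higher (median -0.06). Of these 4, Lipa and Lamp1 were lost under median-ratio scaling, which left 2 higher. Ch25h, the enzyme that makes 25-hydroxycholesterol, was at 34.6 RPKM with 4OHT and 15.5 RPKM in mock in LSL-K4M, 2.24-fold higher (2.00 to 2.50). Ch25h in Mll3/4SET was at 46.2 RPKM with 4OHT and 10.2 RPKM in mock, 4.54-fold higher (4.01 to 5.16). Nceh1, a hydrolase of cholesteryl esters, was also higher in both lines, by 3.53-fold (2.75 to 4.57) and 5.78-fold (4.42 to 7.66), from low mock levels of 0.844 and 0.654 RPKM. Soat2, the second acyltransferase gene, was at 0.388 RPKM with 4OHT and 1.66 RPKM in mock in LSL-K4M. It was at 0.694 RPKM with 4OHT and 4.25 RPKM in mock in Mll3/4SET, 6.12-fold lower (4.20 to 9.18), opposite to Soat1. Gramd1b, which carries cholesterol from the plasma membrane to the endoplasmic reticulum, was 4.12-fold (3.50 to 4.89) and 5.38-fold lower (4.62 to 6.28). Cav1 (caveolin, which binds cholesterol in the many caveolae of fat cells) was 2.50-fold (2.43 to 2.57) and 9.86-fold lower (9.42 to 10.3), and Lipe (hormone-sensitive lipase, which also splits cholesteryl esters) was 4.12-fold (3.97 to 4.28) and 85.0-fold lower (72.0 to 101).

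Most other lipid transporters of the ABC family stayed under 2-fold, as most measured genes did, while Abca1 and Abcg1 were lower. Of 19 listed, 11 were measured in each line, with 2 lower and 0 higher in LSL-K4M (median -0.26) and 1 lower and 1 higher in Mll3/4SET (median -0.10). Abcd2, a peroxisomal transporter of very long chain fatty acids, was at 2.45 RPKM with 4OHT and 10.8 RPKM in mock in LSL-K4M, 4.40-fold lower, and at 1.09 RPKM with 4OHT and 16.5 RPKM in mock in Mll3/4SET, 15.1-fold lower (12.6 to 18.1). Abca8a was 6.40-fold lower (4.56 to 9.18) in LSL-K4M, and Abca3 was 2.22-fold higher (2.05 to 2.39) in Mll3/4SET, a call lost under median-ratio scaling. Abca5 had log2 differences of 0.76 and 0.73. Abcg5 and Abcg8, which export plant sterols from liver and gut, had 2 reads or fewer in every library. The genes of sterol sensing by SREBP2, which matures when membranes run short of cholesterol, were mostly flat. Of 8 measured, Insig1, the sterol-dependent anchor of SREBP, was lower in both lines by 2.73-fold (2.60 to 2.87) and 4.77-fold (4.36 to 5.22), and the other 7 stayed under 2-fold. Srebf2 had log2 differences of 0.71 and 0.55, and Scap, its escort, 0.61 and 0.51.

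**Figure D5:**
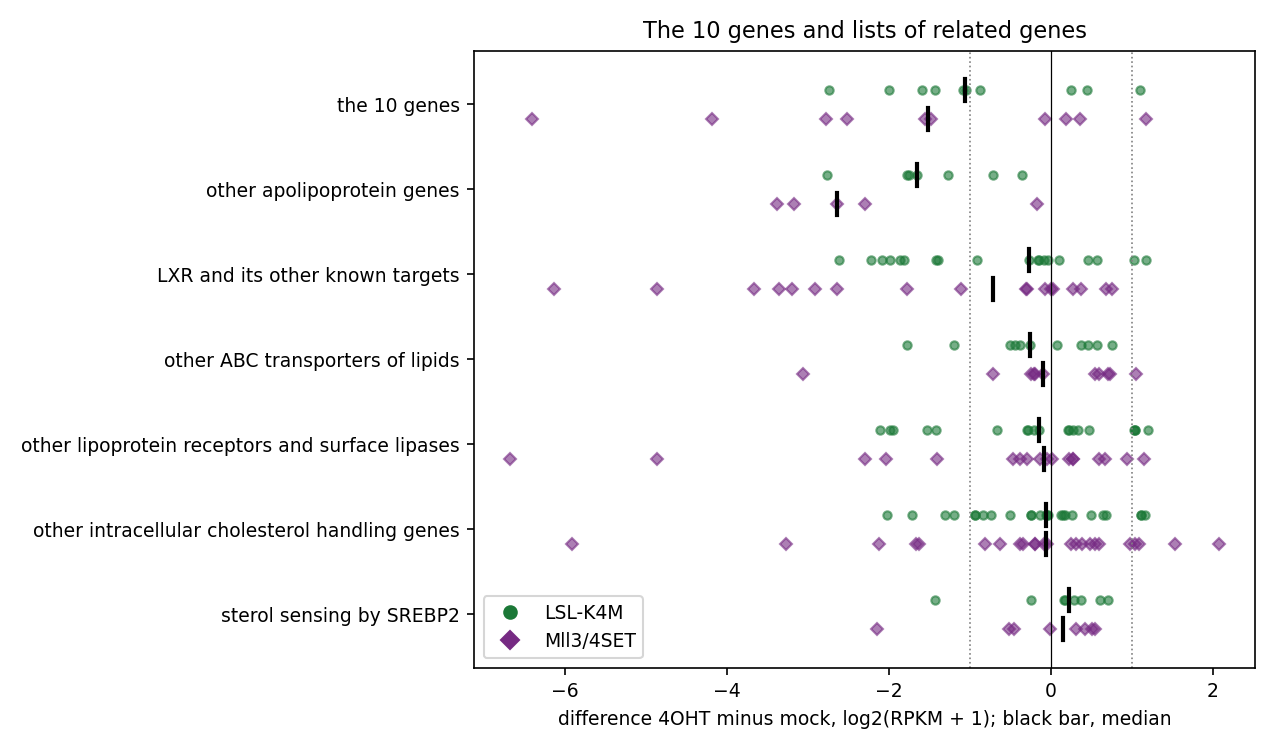
Difference 4OHT minus mock on the log2(RPKM + 1) scale (horizontal axis) of each measured gene in the set of 10 and in 6 lists of related genes (rows), in LSL-K4M (green circles) and Mll3/4SET (purple diamonds), with medians as black bars and 2-fold as dotted lines. The apolipoprotein list lies mostly left of the lower dotted line in both lines, with medians of -1.65 and -2.64, while the SREBP2 list lies mostly between the dotted lines.

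Macrophages also make apolipoprotein E and export cholesterol through ABCA1 and ABCG1, so their markers were read in the same libraries. Of 17 macrophage and leukocyte markers in the tables, 4 were measured in each line. In each line 1 of these 4 was lower and the other 3 stayed under 2-fold. Their medians were 0.10 in LSL-K4M and -0.33 in Mll3/4SET. Of the 17, those at 0 reads numbered 4 with 4OHT and 5 in mock in LSL-K4M. In Mll3/4SET they numbered 6 with 4OHT and 7 in mock. The summed level of the 17 was 7.49 RPKM with 4OHT and 9.90 RPKM in mock in LSL-K4M, and 4.36 RPKM with 4OHT and 8.78 RPKM in mock in Mll3/4SET. Ptprc, which encodes the leukocyte antigen CD45, had 1 read in LSL-K4M 4OHT and 0 reads in the other 3 libraries, Emr1 (current symbol Adgre1) had 1 read or 0 in each, and Tyrobp and Cd52 were at 0 in all 4. These genes were picked after their values were seen and do not stand for the measured markers, of which Mpeg1 alone is named here. Mpeg1 was the marker that passed 2-fold, with 90 reads with 4OHT and 430 reads in mock in LSL-K4M, and 23 reads with 4OHT and 320 reads in mock in Mll3/4SET. Of 10 endothelial, 8 glial and 9 skeletal muscle markers in the tables, the measured ones numbered 2, 2 and 1 for LSL-K4M, then 2, 1 and 1 for the other line, and Acta1 was the single call among them, higher in both lines. Of 12 progenitor markers, 10 were measured in each line, with 2 higher (Dlk1 and Twist2) in LSL-K4M and 3 lower (Pdgfra, Ly6a and Dpt) in Mll3/4SET.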

How the data were processed

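RNA-seq of 4 libraries was used, 1 per line and treatment. Samples were grouped by line, assay and treatment from their labels. The 6 ChIP-seq and input libraries were not analysed here. Per the labels' protocols, mRNA was selected with magnetic beads from Trizol-extracted total RNA. The submitters' processing notes name the build mm9 and the tool SICER. The aligner, the counter and any use of strand are not given in the sources used here. Per the file headers, each line has its own table with the authors' read count and RPKM for each RefSeq transcript (29082 rows, 22835 names). The counts the authors deposited are whole numbers, and within each library a transcript's deposited RPKM is a fixed multiple of its count (the 4OHT multiple over the mock multiple was 0.938 in LSL-K4M and 1.03 in Mll3/4SET). The number of per-sample columns that belong to no sample here was 0.

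For each name the row with the highest mean RPKM was used, and 4 of the 10 genes have several rows. Differences are between log2(RPKM + 1) values, 4OHT minus mock, for genes reaching 1 RPKM in either library, called at 2-fold. The added 1 RPKM understates changes of weakly expressed genes. Ratios of RPKM carry 95% intervals computed exactly from the binomial split of the reads, and a count of 0 was set to 3 reads as a bound. Reads carry no molecular identifiers, so intervals cover counting error only. Ratios between lines carry a log-scale interval from the 4 read counts. Scripts ran in Python 3.11.15 with numpy 2.4.6, pandas 2.3.3, scipy 1.17.1 and matplotlib 3.10.9. The size rule and intervals were also run on simulated reads with counting error alone, which is what the intervals assume. That run says nothing of variation between cultures or of true changes near the 2-fold limit.

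The genes and the lists were chosen with earlier results of these data known, and some genes of the lists are not reported here. The rule for named genes took all 10 genes, up to 4 genes per list with the largest differences, Nr1h3, Nr1h2, Srebf1, Srebf2, Pparg, Fabp4 and Adipoq, and the 3 genes most like each of the 10 in pattern. Chosen after their values were seen are Apoc2, Apoc3, Clptm1, Tomm40, Pvrl2, Ucp1, Apob, Apoa1, Apool, Arl4c, Nrip1, Sorl1, Lrp1, Lrp8, Olr1, Pltp, Nceh1, Soat2, Abcg5, Abcg8, Ptprc, Emr1, Tyrobp, Cd52, Dpt, Lipa, Lamp1, Npc2, Scp2, Cyp7b1 and Cyp27a1. The alternatives were a pseudocount of 0.1 or 0.001, filtering at 5 RPKM or not at all, scaling by median ratios or by upper quartiles, the row with the lowest mean RPKM, all rows summed, and limits of 1.5-fold and 3-fold.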

Additional observations from a re-analysis of the deposited data

Results flagged for a closer look

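Among the genes named under the rule, Sqle and Flt1 had log2(RPKM + 1) differences of opposite sign in the lines with counting intervals that left out a ratio of 1 in both. Both were under 2-fold, each line has 1 library per treatment, and the difference between the lines was not tested. Sqle, an enzyme of cholesterol synthesis, had log2 differences of 0.16 in LSL-K4M (30.8 RPKM with 4OHT, 27.5 RPKM in mock) and -0.52 in Mll3/4SET (15.2 RPKM with 4OHT, 22.3 RPKM in mock). Flt1, an endothelial marker, had log2 differences of 0.26 in LSL-K4M (2.98 RPKM with 4OHT, 2.32 RPKM in mock) and -0.44 in Mll3/4SET (1.62 RPKM with 4OHT, 2.56 RPKM in mock).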

How the results depend on the processing

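In each line the count of 6 lower and 1 higher of the 10 genes held under both pseudocounts, both filters, both scalings and both other choices of row, and the genes called were those named in the report. With a 1.5-fold limit 7 were lower in LSL-K4M, Vldlr being added, and 6 in Mll3/4SET. With a 3-fold limit 3 were lower in LSL-K4M (Abcg1, Apoe and Apoc1) and 4 in Mll3/4SET, and 0 were higher in either line, since Soat1 lies between the limits. No log2 difference of the 10 genes changed sign under any of the 10 alternatives, but most of these could not change a sign. Limits and filters leave each value as it is, and a pseudocount keeps its direction. Only the scalings and, for genes with several rows, the choices of row could have changed it. Median-ratio scaling moved the median of all measured genes from 0.10 to 0.01 in LSL-K4M and from 0.12 to 0.01 in Mll3/4SET, and it brought Soat1 in LSL-K4M to 1.00, at the limit. With smaller pseudocounts the Mll3/4SET difference of Abcg1 went as low as -7.33, and that of Apoc1, with 0 reads, has no stable log2 value. No replicate could be left out, because each group is 1 library. No paired analysis was possible because the labels give no replicate numbers and each group holds 1 library. Over all measured genes, a pseudocount of 0.1 gave 1040 lower and 1018 higher in LSL-K4M and 1134 lower and 1013 higher in Mll3/4SET, against 754 and 641, and 903 and 631, as reported. Median-ratio scaling gave 886 lower and 502 higher, and 1014 and 464. The 1.5-fold limit turned the balance, with 1583 lower and 1945 higher, and 1584 and 1961. The 3-fold limit gave 290 lower and 136 higher, and 475 and 126. Depth limits Apoc1 and Abcg1 in Mll3/4SET 4OHT and the sparse Apoc2 and Apoc4.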

Other observations

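The genes below were counted among the intracellular cholesterol handling genes, and their values are given here. A pair of lysosomal genes was higher with 4OHT in Mll3/4SET. Lipa, the lysosomal acid lipase that frees cholesterol from lipoproteins, was at 74.8 RPKM with 4OHT and 35.9 RPKM in mock, 2.08-fold higher (1.98 to 2.19), and Lamp1 was 2.13-fold higher (2.08 to 2.19). Both fell under 2-fold with median-ratio scaling, and in LSL-K4M their log2 differences were 0.65 and 0.68. Npc2, the soluble partner of NPC1, differed by -0.25 (log2) in LSL-K4M, where Npc1 differed by 0.45, and by -0.19 in Mll3/4SET, where Npc1 differed by 0.19. Scp2, a sterol carrier of peroxisomes, was 2.33-fold lower (2.22 to 2.43) in LSL-K4M and 3.30-fold lower (3.09 to 3.52) in Mll3/4SET. Of the enzymes that act on oxysterols besides Ch25h, Cyp7b1 differed by -0.74 (log2) in LSL-K4M, by -0.81 in the other line, and Cyp27a1 was at 0.782 RPKM with 4OHT and 2.43 RPKM in mock in LSL-K4M.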
